A study of Homo sapiens with 16 samples.

Results

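The genes described are 40 genes of the lysosome and of autophagy, measured in the SAOS osteosarcoma line after transient transfection of the retinoblastoma gene, of the methyltransferase SMYD2, or of both. They were taken by gene symbol from a named list. The rule itself uses no measured value, but the list was chosen with earlier results of these data known. The contrasts with all genes below are therefore not independent of these data. All 40 were measured, among 19775 genes with a symbol of their own on the array. Each was read from 1 probe set, the brightest of those that carry that symbol alone, and 24 of the 40 had further probe sets. By role they were 10 cathepsins, 9 other hydrolases, 2 luminal cofactors, 5 membrane proteins, 3 parts of the proton pump, 2 transcription factors and 9 autophagy factors.

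Lysosomes are acidic organelles in which hydrolases break down proteins, lipids, sugars and glycogen. A proton pump of many subunits keeps the lumen acidic, and heavily glycosylated proteins such as LAMP1 and LAMP2 line the membrane. In autophagy, a double membrane closes around cytoplasm and fuses with the lysosome. Kinases and lipid-binding proteins start that membrane, and small proteins of the ATG8 family coat it. The transcription factors TFEB and TFE3 bind the motif CACGTG in promoters of many such genes. RB, the product of RB1, restrains E2F transcription factors, and SAOS cells lack functional RB.

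RNA came from 4 groups of SAOS cells with 4 arrays each. Control cells had no transfection. Another group received human RB1 (here RB), another mouse SMYD2, and the last human RB1 together with mouse SMYD2. No group with an empty vector is labelled, so transfection as such is part of every difference from control, while RB plus SMYD2 against SMYD2 compares cells that were all transfected. SAOS is 1 cell line. No label states separate cultures within a group, so the p-values refer to the scatter among these arrays, and that scatter may be technical. Replicates are numbered 1, 3, 4 and 5 in each group, and values below are given in that order. All values are log2 signals, so a difference of 1 is a doubling, and levels are not compared between genes.

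RB1 read 6.24, 6.49, 6.27 and 6.93 in control and 6.89, 6.59, 6.98 and 6.92 with SMYD2. It read 7.40, 7.43, 8.10 and 7.87 with RB and 7.90, 7.90, 9.25 and 9.62 with RB plus SMYD2, so no array given RB overlapped one that was not. The human SMYD2 probe set differed by 0.11 ± 0.08 (SE) between SMYD2 and control, and it need not bind a mouse transcript. Array medians lay between 5.59 and 5.64. The signal of the ACTB 3′ probe set exceeded that of the 5′ set by 3.53 in SMYD2 array 1 and 2.46 in control array 1, against 0.54 to 1.63 on the other 14, so counts are also given without both. Osteoblast lineage markers other than SPP1 were bright, and the mean of all 8 was 10.74 to 11.59 per array. SPP1 read 5.05 to 5.52 in control, below the array medians, and 5.83 to 6.34 with RB. Of 8, SPARC and SPP1 rose in RB against control, and COL1A1 and SPARC in RB plus SMYD2 against SMYD2. Without the replicate number as a block, COL1A2 differed by 0.94 ± 0.52 and 0.88 ± 0.52 (limma adjusted p = 0.483 and 0.390). With the block COL1A2 passed in both (2.1e-05 and 5.6e-06), and RUNX2 and IBSP passed in the latter (0.0442 and 0.0423).

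A group of these genes rose with RB, in cells without SMYD2 and in cells with it. In RB against control, 8 of the 40 rose and 0 fell at a limma adjusted p under 0.05, while 1.24% of all 19775 genes rose and 1.71% fell. The 8 were the cathepsin CTSO, the hydrolases TPP1, LIPA and ASAH1, the membrane protein LAMP2, and the autophagy factors WIPI1, BECN1 and GABARAPL1. When RB plus SMYD2 was compared with SMYD2, 13 rose and 1 fell, where 2.94% of all genes rose and 4.25% fell. The 13 held the same 8 genes with CTSA, CTSB, HEXA, NEU1 and PSAP added, and the gene that fell was GUSB. RNA from whole cultures cannot tell more cells with a transcript from more transcript per cell.

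A shift in 1 direction was also visible below the threshold. The median of the 40 differences was 0.20 in RB against control, against 0.006 over all genes, and 34 of the 40 were above 0, against 51.8% of all genes. For RB plus SMYD2 against SMYD2 the median was 0.27, against 0.009 over all genes, and again 34 were above 0. The arrays did not overlap in RB against control for 16 members that were higher with RB and 2, GUSB and GLA, that were lower; of all genes, 4.85% were separated upward and 5.2% downward. Between RB plus SMYD2 and SMYD2, 14 were separated upward and 1, GUSB, downward, against 5.44% and 6.61% of all genes. With all 8 arrays given RB set against all 8 without it, a split chosen after the values were seen, 11 members were higher in every RB array and GUSB was lower in every one. Over all genes the same split separated 1.64% upward and 2.65% downward.

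**Figure D1:**
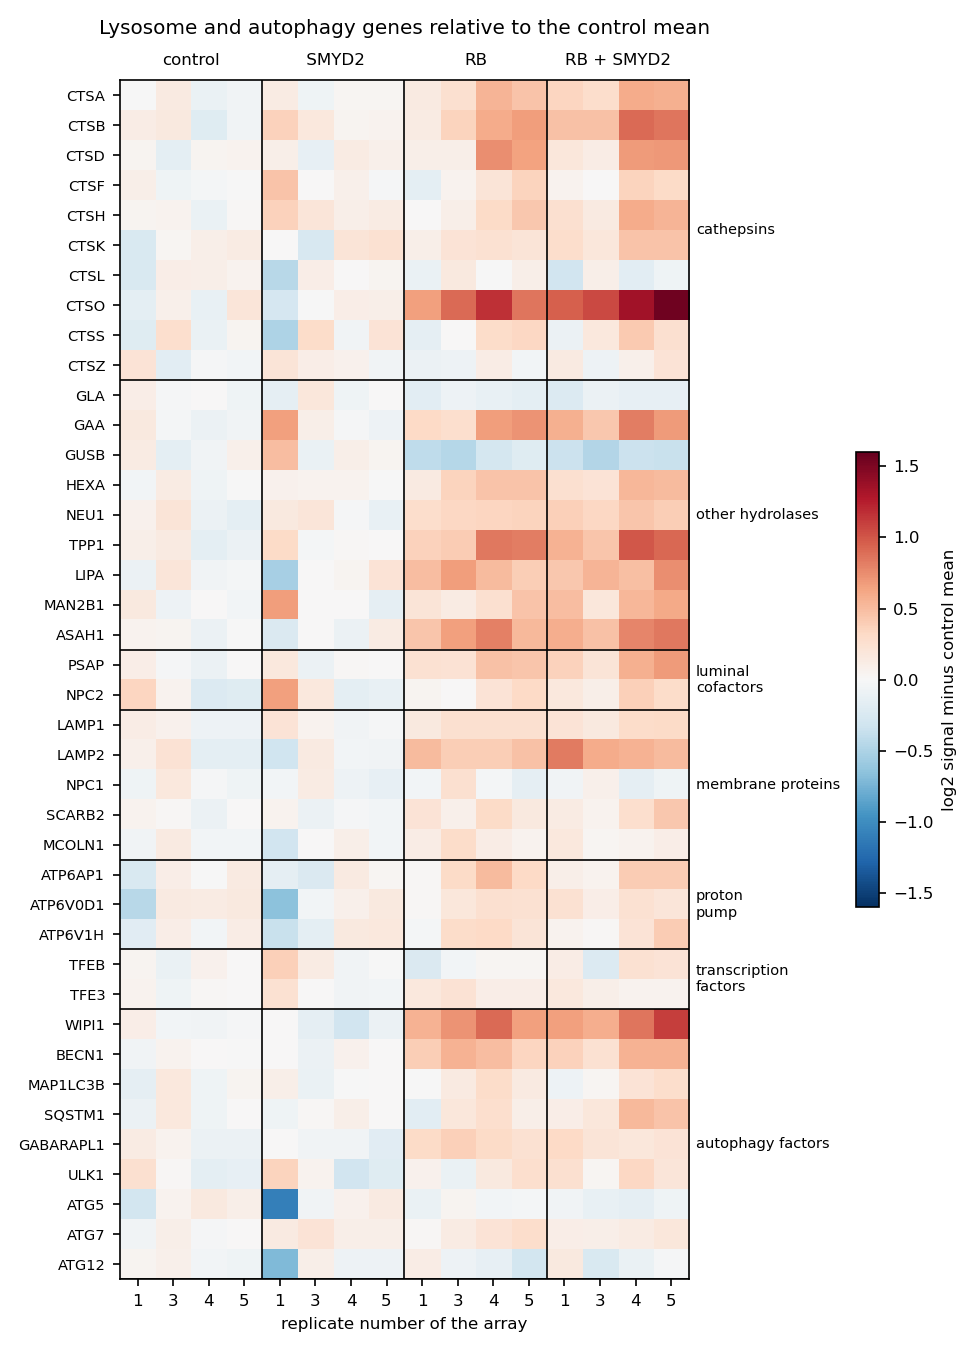
Heat map of the 40 genes (rows, grouped by role) on the 16 arrays (columns, by group and replicate number), coloured by log2 signal minus the control mean of that gene on a scale from -1.6 to 1.6. The red block of the RB and RB plus SMYD2 columns holds CTSO, TPP1, ASAH1, LIPA, LAMP2, WIPI1 and BECN1, GUSB is blue there, and CTSZ and NPC1 stay pale.

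Same-numbered arrays deviated together, so a fit that holds the replicate number as a block is given where it alters a call. With the block, 15 members rose and 1 fell in RB against control (3.61% and 3.47% of all genes), and 19 rose and 1 fell in RB plus SMYD2 against SMYD2 (6.62% and 7.6%). Without control array 1 and SMYD2 array 1, 14 rose and 1 fell in the first comparison, where 5.99% of all genes were called, and 18 rose and 1 fell in the second, where 10.4% were. Dim genes are seldom called, and all 40 members were among the 11832 genes with a mean signal of at least 6. Among those genes, 12 members rose and 0 fell in the first comparison, where 5.79% were called. In the second 14 rose and 1 fell, where 13.9% were. Any 1 array left out moved the count of members called between 4 and 15 in RB against control, the lowest without control array 4, control array 5, RB array 4 or RB array 5, and the highest without SMYD2 array 1. Of all genes, 1.45% to 1.75% were called at those lowest counts and 4.98% at the highest. The count lay between 9 and 18 in RB plus SMYD2 against SMYD2, lowest without RB plus SMYD2 array 5 and highest without SMYD2 array 1. There 4.57% and 8.86% of all genes were called.

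Promoter sequence was examined because the members moved together and TFEB and TFE3 are known to bind CACGTG. RefSeq promoters on GRCh38.p14, from 250 bases before to 50 after the start, were at hand for 31 of the 40 members. CACGTG, which reads the same on both strands, lay in 8 of the 31 (25.8%), against 7.43% of all 27305 promoters and 8.90% of those of the genes tested. Among promoters of further genes of the same pathways, described below, 18 of 89 (20.2%) held it. The longer TCACGTGA, which contains it, lay in 5 of 31 (16.1%), against 1.04% of all promoters and 9 of 89 (10.1%) of those further genes. Both motifs were thus frequent beyond the members as well. The E2F-type motifs TTTGGCGC, TTTCCCGC and TTTCGCGC, searched on both strands, lay in 0 of 31, against 0.659%, 1.66% and 0.546% of all promoters. At shares so low, 0 of 31 is a likely outcome for any genes, so the members cannot be told from other promoters here. Other forms of the E2F motif were not searched.

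Of the 8 members with CACGTG, 4 passed the test in at least 1 comparison (CTSA, GAA, NEU1 and LAMP1) and 4 did not (CTSD, CTSF, MCOLN1 and ATP6V0D1). Of the 23 without it, 6 passed (GUSB, TPP1, LIPA, WIPI1, BECN1 and GABARAPL1). The 9 members without a promoter at hand are not in this split. Among them CTSB, CTSO, HEXA, ASAH1, PSAP and LAMP2 passed, and CTSK, CTSS and ATP6V1H did not. Among the promoters at hand, the motif was thus present on both sides of the threshold. Several called genes, WIPI1 and BECN1 among them, had no CACGTG in this window. The 4 promoters of genes that passed are shown first and 2 that did not pass follow, for comparison, each 5′ to 3′ on the strand of the gene with CACGTG in capitals.
CTSA (chr20:45891281-45891327, plus strand): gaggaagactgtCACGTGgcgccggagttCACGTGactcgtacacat
GAA (chr17:80101493-80101567, plus strand): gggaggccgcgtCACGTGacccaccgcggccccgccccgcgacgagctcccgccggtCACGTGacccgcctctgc
NEU1 (chr6:31862930-31862959, minus strand): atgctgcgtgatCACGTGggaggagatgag
LAMP1 (chr13:113297035-113297228, plus strand): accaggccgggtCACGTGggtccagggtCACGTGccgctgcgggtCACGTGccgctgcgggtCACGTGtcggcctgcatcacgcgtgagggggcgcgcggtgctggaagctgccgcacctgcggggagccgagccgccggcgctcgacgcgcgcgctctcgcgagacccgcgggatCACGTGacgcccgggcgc
MCOLN1 (chr19:7522571-7522623, plus strand): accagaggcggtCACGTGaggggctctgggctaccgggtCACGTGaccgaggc
CTSD (chr11:1763957-1763986, minus strand): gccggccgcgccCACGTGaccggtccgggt
LAMP1 carried 5 copies in the stretch shown, between 192 and 28 bases before the start. GAA had 2, at 76 and 31 bases before it. MCOLN1 had 2, at 41 and 14 bases before the start.

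Among the 10 cathepsins, lysosomal proteases, CTSO had the largest difference of all 40 members. CTSO, a cysteine protease, read 5.77, 6.01, 5.81 and 6.12 in control and 5.66, 5.92, 6.03 and 6.02 with SMYD2. It read 6.59, 6.83, 7.10 and 6.78 with RB and 6.89, 6.99, 7.27 and 7.48 with RB plus SMYD2. Every array given RB was above every array without it. CTSO rose by 0.90 ± 0.14 (SE, 1.86-fold) in RB against control (limma adjusted p = 0.0015) and by 1.25 ± 0.14 (2.38-fold) in RB plus SMYD2 against SMYD2 (adjusted p = 1.7e-05), in 4 of 4 same-numbered pairs each time. Both calls held with each array left out in turn.

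CTSB, an abundant cysteine protease, read 10.48, 10.52, 10.16 and 10.30 in control and 10.73, 10.53, 10.40 and 10.41 with SMYD2. It read 10.49, 10.72, 10.95 and 11.03 with RB and 10.83, 10.83, 11.26 and 11.21 with RB plus SMYD2. RB arrays 4 and 5 stood above all control arrays, whereas RB array 1 lay among them. CTSB rose by 0.51 ± 0.13 in RB plus SMYD2 against SMYD2 (limma adjusted p = 0.0244), and differed by 0.44 ± 0.13 in RB against control (adjusted p = 0.0980). The first call was lost without SMYD2 array 4 or 5 or RB plus SMYD2 array 4 or 5 (adjusted p = 0.0658 to 0.0998), while without RB array 1 the second passed (0.54, adjusted p = 0.0388).

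CTSA, a serine carboxypeptidase that also protects NEU1, read 11.63, 11.79, 11.53 and 11.59 in control and 11.77, 11.57, 11.67 and 11.67 with SMYD2. It read 11.78, 11.90, 12.19 and 12.10 with RB and 11.98, 11.92, 12.23 and 12.21 with RB plus SMYD2. RB array 1 lay just below control array 3, and every other RB array was above all arrays without RB. CTSA rose by 0.41 ± 0.10 in RB plus SMYD2 against SMYD2 (limma adjusted p = 0.0120), a call lost without RB plus SMYD2 array 4 (adjusted p = 0.0563) or 5 (0.0523). The difference was 0.36 ± 0.10 in RB against control (adjusted p = 0.0530, and 0.0215 with the replicate block), and it passed without control array 3, SMYD2 array 1 or RB array 1 (0.0250 to 0.0428).

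CTSD, the main aspartic protease, and CTSK, known from bone-resorbing cells, passed in neither comparison without the block. CTSD differed by 0.39 ± 0.16 in RB against control (limma adjusted p = 0.254, and 0.0244 with the block) and by 0.38 ± 0.16 in RB plus SMYD2 against SMYD2 (0.180, and 0.0186 with the block). Its RB arrays read 9.84, 9.84, 10.48 and 10.38, with numbers 4 and 5 above 1 and 3. CTSK differed by 0.19 ± 0.11 and 0.29 ± 0.11, the latter with adjusted p = 0.131 in limma and 0.0363 with the block. The other 5 cathepsins, CTSF, CTSH, CTSL, CTSS and CTSZ, differed by -0.02 to 0.20 in RB against control and passed in no comparison without the block.

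Of the 9 other hydrolases, 3 rose in RB against control, and 5 rose and 1 fell in RB plus SMYD2 against SMYD2. ASAH1, acid ceramidase, read 9.81, 9.80, 9.67 and 9.75 in control and 9.53, 9.76, 9.66 and 9.89 with SMYD2. It read 10.20, 10.42, 10.56 and 10.28 with RB and 10.34, 10.23, 10.54 and 10.61 with RB plus SMYD2, with a clear gap between arrays with and without RB. ASAH1 rose by 0.61 ± 0.10 in RB against control (limma adjusted p = 0.0030) and by 0.72 ± 0.10 in RB plus SMYD2 against SMYD2 (adjusted p = 2.3e-04), and both calls held with each array left out. A second of its 5 probe sets was called in both comparisons, 1 varied too widely for a call (0.68 ± 0.39 and 1.05 ± 0.39), and 2 differed by -0.15 and -0.02 in RB against control.

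TPP1, a tripeptidyl peptidase, read 9.94, 9.98, 9.68 and 9.75 in control and 10.14, 9.81, 9.86 and 9.85 with SMYD2. It read 10.21, 10.25, 10.68 and 10.66 with RB and 10.39, 10.28, 10.83 and 10.76 with RB plus SMYD2. All RB arrays were above the rest, and numbers 4 and 5 stood highest in both RB groups. TPP1 rose by 0.61 ± 0.14 in RB against control (limma adjusted p = 0.0232) and by 0.65 ± 0.14 in RB plus SMYD2 against SMYD2 (0.00719). The first call was lost without control array 4 or 5 or RB array 4 or 5 (adjusted p = 0.0794 to 0.103). TPP1 had 4 probe sets. The second-brightest differed by 0.62 ± 0.18 and 0.87 ± 0.18, and was called in RB plus SMYD2 against SMYD2 only. The next differed by 0.00 ± 0.08 and 0.11 ± 0.08, and the dimmest by 0.08 ± 0.12 and 0.19 ± 0.12, without a call.

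LIPA, lysosomal acid lipase, read 10.97, 11.26, 11.00 and 11.03 in control and 10.53, 11.06, 11.11 and 11.28 with SMYD2. It read 11.55, 11.73, 11.56 and 11.45 with RB and 11.49, 11.61, 11.54 and 11.80 with RB plus SMYD2. Every array with RB was above every array without it, and SMYD2 array 1 was the lowest of all. LIPA rose by 0.51 ± 0.13 in RB against control (limma adjusted p = 0.0369) and by 0.61 ± 0.13 in RB plus SMYD2 against SMYD2 (0.00529). The first call was lost in 8 of the 16 fits with 1 array left out, those without control array 1, 4 or 5, any RB array, or RB plus SMYD2 array 4, with adjusted p = 0.0521 to 0.117.

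GUSB, beta-glucuronidase, was the member that fell. It read 11.60, 11.32, 11.42 and 11.55 in control and 11.96, 11.37, 11.56 and 11.52 with SMYD2. It read 11.07, 11.02, 11.19 and 11.28 with RB and 11.13, 11.00, 11.13 and 11.12 with RB plus SMYD2, each lower than every array without RB. GUSB fell by 0.51 ± 0.11 in RB plus SMYD2 against SMYD2 (limma adjusted p = 0.00574), and the difference in RB against control was -0.33 ± 0.11 (adjusted p = 0.120, and 0.0207 with the replicate block). Without SMYD2 array 1, the latter passed (0.0152), and the former was -0.39 and kept its call.

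NEU1, lysosomal sialidase, read 10.67, 10.81, 10.50 and 10.44 in control and 10.75, 10.79, 10.58 and 10.48 with SMYD2. It read 10.88, 10.93, 10.94 and 10.96 with RB and 10.98, 10.93, 11.04 and 10.99 with RB plus SMYD2. The RB arrays lay close together and above all others. NEU1 rose by 0.34 ± 0.09 in RB plus SMYD2 against SMYD2 (limma adjusted p = 0.0252), a call lost without SMYD2 array 4 or 5 or RB plus SMYD2 array 1, 4 or 5 (adjusted p = 0.0568 to 0.0831). Its difference in RB against control was 0.32 ± 0.09 (adjusted p = 0.0557, and 0.0174 with the replicate block), and it passed without control array 3 or SMYD2 array 1 or 5 (0.0223 to 0.0455).

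HEXA, a subunit of beta-hexosaminidase, rose by 0.34 ± 0.09 in RB plus SMYD2 against SMYD2 (limma adjusted p = 0.0365), and this call was lost without control array 5, SMYD2 array 3, 4 or 5, or RB plus SMYD2 array 4 or 5 (adjusted p = 0.0505 to 0.137). In RB against control HEXA differed by 0.35 ± 0.09 (0.0555, and 0.0190 with the block), and passed without SMYD2 array 1 or RB array 1 (0.0350 and 0.0242). GAA, the glycogen-degrading alpha-glucosidase, read 10.08 in SMYD2 array 1 and 9.34 to 9.51 on the other SMYD2 arrays. It differed by 0.50 ± 0.15 in RB against control (adjusted p = 0.0924, and 0.0393 with the block) and by 0.46 ± 0.15 in RB plus SMYD2 against SMYD2 (0.0731, and 0.0352 with the block). Without SMYD2 array 1 both passed (0.50, adjusted p = 0.0126, and 0.63, adjusted p = 0.00243). MAN2B1, lysosomal alpha-mannosidase, differed by 0.26 ± 0.15 and 0.32 ± 0.15 and passed in neither. GLA, alpha-galactosidase A, had a difference of -0.14 ± 0.08 and one of -0.13 ± 0.08, neither of which passed.

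**Figure D2:**
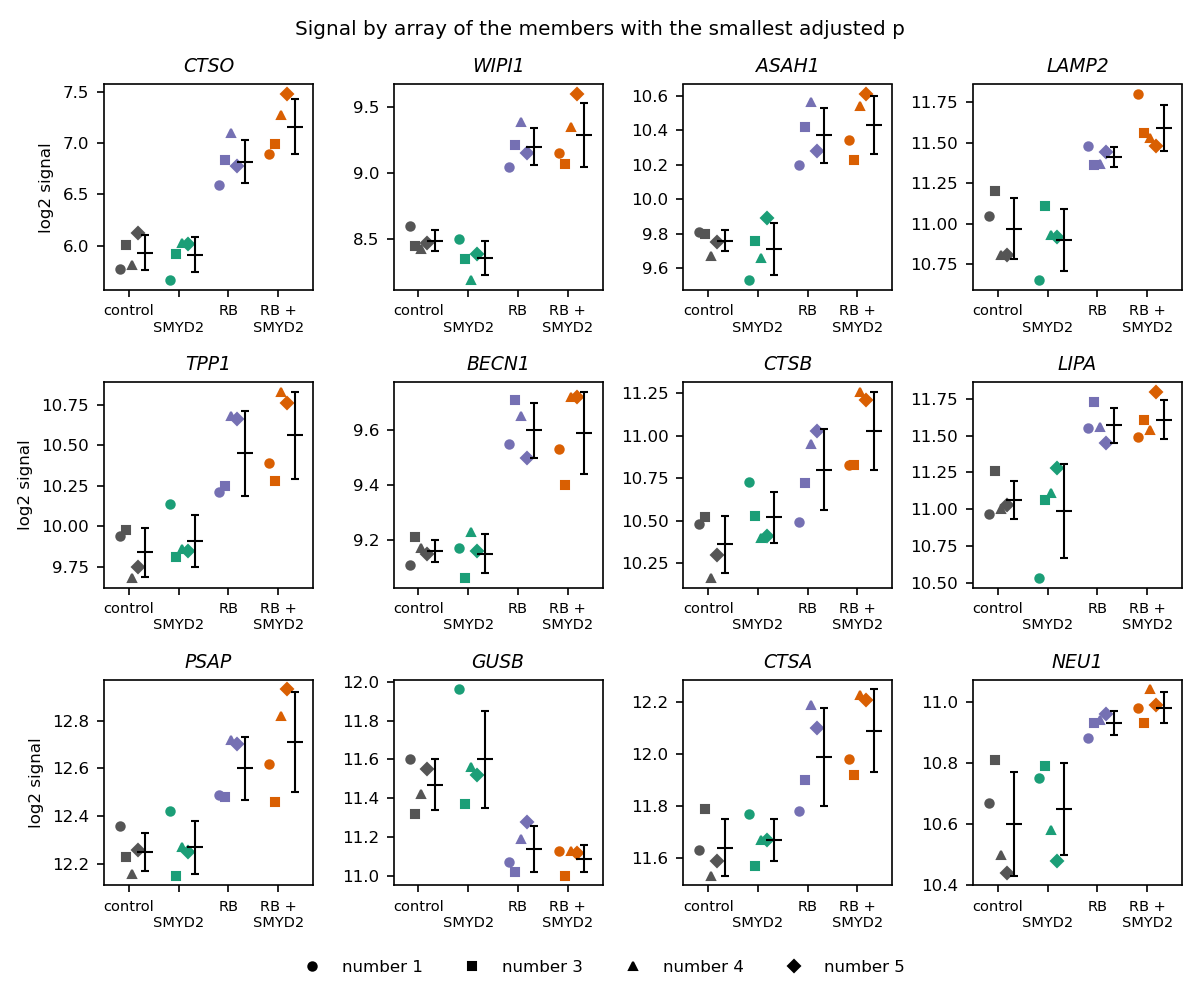
Log2 signal (y axis) on each array of the 12 genes with the smallest adjusted p, by group (x axis, one colour each) and replicate number (marker shape), with the group mean and SD (n = 4) beside the points. In CTSO, WIPI1, ASAH1, LAMP2, TPP1, BECN1, LIPA, PSAP and NEU1 all 8 arrays given RB lie above the 8 without it, in GUSB they lie below, and in CTSA and CTSB the groups overlap.

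Both luminal cofactors had higher means with RB, and 1 passed. PSAP, the precursor of the saposins that help hydrolases degrade sphingolipids, read 12.36, 12.23, 12.16 and 12.26 in control and 12.42, 12.15, 12.27 and 12.25 with SMYD2. It read 12.49, 12.48, 12.72 and 12.70 with RB and 12.62, 12.46, 12.82 and 12.93 with RB plus SMYD2, all above the arrays without RB. PSAP rose by 0.44 ± 0.09 in RB plus SMYD2 against SMYD2 (limma adjusted p = 0.00745), and its difference in RB against control was 0.35 ± 0.09 (0.0592, and 0.0126 with the replicate block). The latter passed without SMYD2 array 1 or RB plus SMYD2 array 3 or 5 (0.0305 to 0.0433). NPC2, which carries cholesterol in the lumen, differed by 0.15 ± 0.15 and 0.10 ± 0.15 and passed in neither.

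Of the 5 membrane proteins, LAMP2, which also serves as a receptor in chaperone-mediated autophagy, rose. It read 11.05, 11.20, 10.81 and 10.81 in control and 10.65, 11.11, 10.93 and 10.92 with SMYD2. LAMP2 read 11.48, 11.36, 11.37 and 11.44 with RB and 11.80, 11.56, 11.53 and 11.48 with RB plus SMYD2, with no overlap between arrays with and without RB. It rose by 0.45 ± 0.11 in RB against control (limma adjusted p = 0.0279) and by 0.69 ± 0.11 in RB plus SMYD2 against SMYD2 (4.8e-04). The first call was lost without control array 4 or 5 or any 1 of the 4 RB arrays (adjusted p = 0.0530 to 0.113). All 4 of its probe sets had differences above 0 in both comparisons. A set almost as bright as the one used differed by 0.14 ± 0.08 and 0.30 ± 0.08, without a call. In the fit over all probe sets, 0 of the 4 were called in RB against control and 2 in RB plus SMYD2 against SMYD2.

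LAMP1, an abundant membrane glycoprotein related to LAMP2, differed by 0.22 ± 0.07 in RB against control (limma adjusted p = 0.0981) and by 0.20 ± 0.07 in RB plus SMYD2 against SMYD2 (0.0907). Without SMYD2 array 1 both passed (adjusted p = 0.0229 and 0.00927). The second-brightest LAMP1 probe set differed by 0.28 ± 0.08 and 0.35 ± 0.08 and was called in RB plus SMYD2 against SMYD2 (0.0210), and a dimmer one differed by 0.44 ± 0.22 and 0.69 ± 0.22 without a call. The mean of all 4 sets passed in both (0.28, adjusted p = 0.0407, and 0.32, adjusted p = 0.00869). SCARB2, the receptor that brings glucocerebrosidase to the lysosome, differed by 0.19 ± 0.08 and 0.25 ± 0.08 (adjusted p = 0.296 and 0.0786, the latter 0.0343 with the block). MCOLN1, a calcium channel of the membrane, differed by 0.15 ± 0.09 in each comparison, and NPC1, the cholesterol exporter, by 0.01 ± 0.10 and -0.02 ± 0.10.

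None of the 3 proton pump members passed without the block, although the means of all 3 were higher with RB. ATP6AP1, an accessory subunit, differed by 0.29 ± 0.12 in RB against control (limma adjusted p = 0.281, and 0.0346 with the block) and by 0.29 ± 0.12 in RB plus SMYD2 against SMYD2 (0.177, and 0.0204 with the block) and all 4 same-numbered pairs were higher with RB in each. ATP6V0D1, in the membrane sector, differed by 0.18 ± 0.15 and 0.31 ± 0.15, and ATP6V1H, in the cytosolic sector, by 0.20 ± 0.13 and 0.22 ± 0.13. The transcription factor genes did not pass either. TFEB differed by -0.06 ± 0.11 and -0.02 ± 0.11, and TFE3 by 0.15 ± 0.07 (adjusted p = 0.405) and 0.05 ± 0.07. These are transcript levels, and both proteins are known to be regulated by phosphorylation and location, which arrays do not read.

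Of the 9 autophagy factors, 3 rose in both comparisons. WIPI1, which binds phosphatidylinositol 3-phosphate on forming autophagosomes, read 8.60, 8.45, 8.43 and 8.47 in control and 8.50, 8.35, 8.19 and 8.39 with SMYD2. It read 9.05, 9.21, 9.39 and 9.15 with RB and 9.15, 9.07, 9.35 and 9.60 with RB plus SMYD2. A clear gap separated the arrays with RB from those without. WIPI1 rose by 0.71 ± 0.11 (1.64-fold) in RB against control (limma adjusted p = 0.00182) and by 0.94 ± 0.11 (1.91-fold) in RB plus SMYD2 against SMYD2 (3.9e-05), and its second probe set was called in both as well.

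BECN1, part of the lipid kinase complex that makes phosphatidylinositol 3-phosphate, read 9.11, 9.21, 9.17 and 9.15 in control and 9.17, 9.06, 9.23 and 9.16 with SMYD2. It read 9.55, 9.71, 9.65 and 9.50 with RB and 9.53, 9.40, 9.72 and 9.72 with RB plus SMYD2, again without overlap. BECN1 rose by 0.44 ± 0.08 in RB against control (limma adjusted p = 0.00784) and by 0.44 ± 0.08 in RB plus SMYD2 against SMYD2 (0.00318). The WIPI1 and BECN1 calls held with each array left out. GABARAPL1, of the ATG8 family, rose by 0.31 ± 0.08 in each comparison (0.0386 and 0.0217). Its first call was lost in 10 of 16 fits with 1 array left out, the exceptions being control array 1, every SMYD2 array and RB plus SMYD2 array 1 (adjusted p = 0.0507 to 0.147 where lost). The second call was lost without SMYD2 array 5 or RB plus SMYD2 array 1 or 5 (0.0521 to 0.0716).

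The other 6 autophagy factors did not pass in RB against control. SQSTM1, the cargo receptor p62, differed by 0.09 ± 0.11 there and by 0.30 ± 0.11 in RB plus SMYD2 against SMYD2 (limma adjusted p = 0.110, and 0.0245 with the replicate block), and 2 of its dimmer probe sets differed by -0.23 and -0.26 in RB against control. MAP1LC3B, the ATG8 protein LC3B, differed by 0.14 ± 0.10 and 0.12 ± 0.10 in its brighter probe set, and by 0.44 ± 0.25 and 0.62 ± 0.25 in a slightly dimmer one that was not called either. ATG7, the enzyme that activates ATG8 proteins, differed by 0.16 ± 0.07 and -0.01 ± 0.07. A dimmer ATG7 probe set had differences of -0.28 ± 0.11 and -0.50 ± 0.11, the latter called in the fit over all probe sets (limma adjusted p = 0.0195), and one of -0.60 ± 0.11 in RB plus SMYD2 against control (0.00516). ULK1, ATG5 and ATG12 passed in no comparison. In SMYD2 array 1, ATG5 read 10.02 and ATG12 9.08, below the other 15 arrays.

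SMYD2 by itself was not seen to move these genes. In SMYD2 against control, 0 of the 40 passed, 0 had an unadjusted limma p under 0.05, and the differences had a median of 0.00, where 0% of all genes passed and 2.89% had such a p. The 95% intervals of the 40 differences reached from -0.64 to 0.48 at their outermost. Addition of SMYD2 to RB (RB plus SMYD2 against RB) gave no call either: 0 of 40 passed (0% of all genes) and 1 had an unadjusted p under 0.05 (4.33% of all genes). That member was CTSO, at 0.34 ± 0.14 (adjusted p = 1), higher in 4 of 4 same-numbered pairs with overlapping groups. The 95% intervals there reached from -0.46 to 0.62. RB1 signal was itself higher with RB plus SMYD2 than with RB, by 0.50, 0.47, 1.14 and 1.75 between same-numbered arrays. SMYD2 and a higher RB1 signal therefore cannot be told apart in this comparison or in the interaction.

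The interaction, the RB difference with SMYD2 minus that without it, passed for 0 of 40 members (0% of all genes, with 2.94% and 0 members at an unadjusted limma p under 0.05). Its median was 0.03, and 24 of 40 were above 0. For CTSO it was 0.35 ± 0.19 (adjusted p = 1) with a 95% interval from -0.05 to 0.76, for LAMP2 0.24 ± 0.15 from -0.07 to 0.56, and for WIPI1 0.22 ± 0.16 from -0.11 to 0.56. The design therefore left differences of that size unresolved. Across the 40 genes, which are not independent replicates, the RB difference without SMYD2 and that with it shared no array and had a Pearson r of 0.944 and a Spearman rho of 0.916, and 34 had the same sign. The same measures were not taken over all genes, so this likeness is not shown to be particular to the members.

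**Figure D3:**
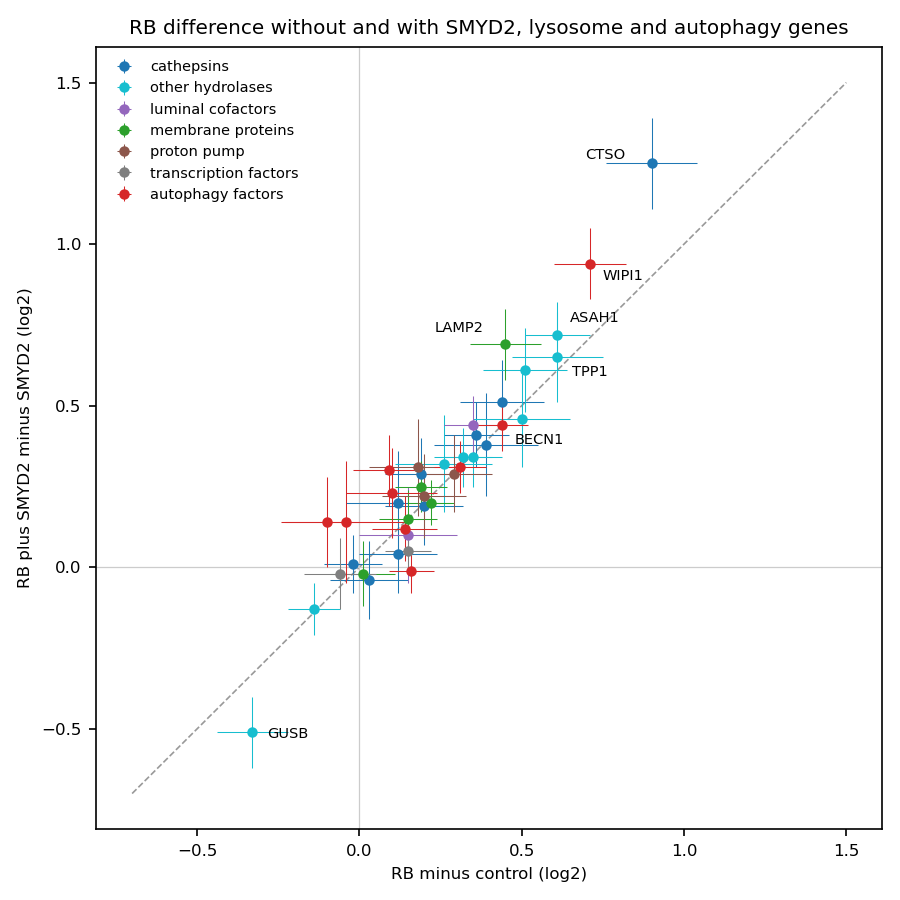
RB minus control (x axis, log2) against RB plus SMYD2 minus SMYD2 (y axis, log2) for the 40 genes, coloured by role, with standard errors as bars and equality as a dashed line. CTSO (0.90 and 1.25), WIPI1 (0.71 and 0.94) and LAMP2 (0.45 and 0.69) lie above the line, GUSB (-0.33 and -0.51) below it at the lower left, and most other genes close to it.

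Both remaining comparisons reuse arrays of those above. Of the members, with RB plus SMYD2 set against control, 14 rose and 1 fell, against 3% and 4.2% of all genes, with GAA (0.63 ± 0.15, limma adjusted p = 0.0136) and LAMP1 (0.24 ± 0.07, 0.0375) among them. GUSB fell there by 0.38 ± 0.11 (0.0392). GAA lost its call without RB plus SMYD2 array 4 (adjusted p = 0.0597), LAMP1 in 7 of 16 fits with 1 array left out (control array 4 or 5, RB array 4 or 5, or RB plus SMYD2 array 1, 4 or 5, 0.0505 to 0.132), and GUSB in 8 (control array 1, 4 or 5, RB array 4, or any RB plus SMYD2 array, 0.0525 to 0.113). LIPA lost its call there without RB plus SMYD2 array 5 (0.0543), NEU1 without control array 5 (0.0521), and HEXA without control array 4 or 5 or RB plus SMYD2 array 4 or 5 (0.0501 to 0.0781), while GABARAPL1 (0.24 ± 0.08, 0.0797) passed without control array 1 or SMYD2 array 1. With the block, 20 rose and 1 fell, against 6.17% and 6.78% of all genes. In RB against SMYD2, 8 rose and 1 fell, against 1.39% and 1.86% of all genes, and with the block 14 rose and 1 fell, against 4.84% and 4.42%. The 9 were CTSO, TPP1, LIPA, ASAH1, LAMP2, WIPI1, BECN1, GABARAPL1 and, lower, GUSB.

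The size of the RB difference followed the replicate number for some members and not for others. Between same-numbered arrays, the median of the 40 differences in RB against control was 0.13 and 0.14 for numbers 1 and 3, and 0.38 and 0.33 for numbers 4 and 5. For RB plus SMYD2 against SMYD2 it was 0.18, 0.16, 0.39 and 0.40. CTSB differed by 0.02, 0.21, 0.79 and 0.73 in RB against control, CTSD by 0.06, 0.24, 0.69 and 0.59, and TPP1 by 0.27, 0.26, 1.01 and 0.91. BECN1, at 0.44, 0.50, 0.48 and 0.35, and LIPA, at 0.58, 0.47, 0.56 and 0.42, were not larger in numbers 4 and 5 there. In RB plus SMYD2 against SMYD2, BECN1 differed by 0.37, 0.35, 0.48 and 0.56, and LIPA by 0.96, 0.55, 0.43 and 0.52, with number 1 the largest. RB1 itself differed by 1.16, 0.94, 1.84 and 0.94 in RB against control and by 1.01, 1.31, 2.26 and 2.70 in RB plus SMYD2 against SMYD2. Its part in the pattern was not tested. With numbers 1 and 3 alone, 0 members passed in RB against control and 1 in RB plus SMYD2 against SMYD2, where 0.00506% and 0.157% of all genes did. With 4 and 5 alone 29 and 28 members passed, where 19.3% and 25.7% of all genes did. Both splits were chosen after the data were seen.

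**Figure D4:**
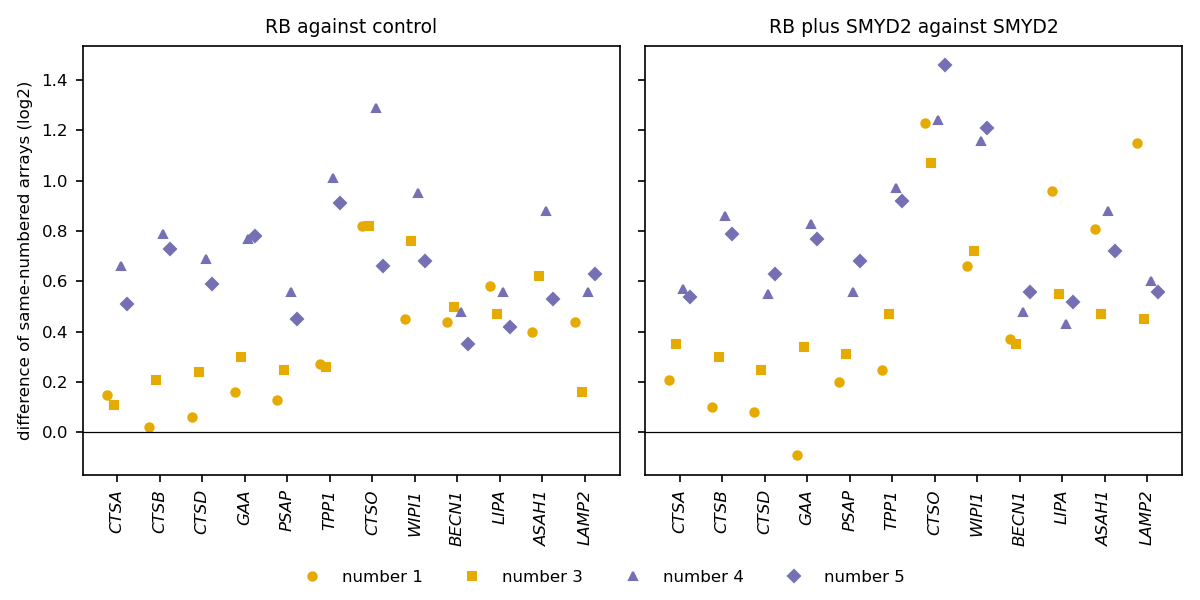
Difference between same-numbered arrays (y axis, log2) for 12 genes (x axis), in RB against control and in RB plus SMYD2 against SMYD2, with numbers 1 and 3 in yellow and 4 and 5 in purple. For CTSA, CTSB, CTSD, GAA, PSAP and TPP1 the purple points lie above the yellow ones in both panels, and for BECN1, LIPA and LAMP2 they mix in at least 1 panel.

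Further genes of the same pathways, 104 measured in 6 lists, were read in the same way. In RB against control 5 of the 104 rose and 0 fell, where 1.24% of all genes rose. With the replicate block 20 rose, where 3.61% of all genes did. The median of the 104 was 0.12, against 0.006 over all genes. Of the 5, 4 were among 20 other hydrolases, whose median was 0.31, including FUCA1, a fucosidase (0.59 ± 0.14), GALC, galactosylceramidase (0.51 ± 0.09), and LGMN, an asparaginyl protease (0.50 ± 0.12). The other was GNPTG, a subunit of the enzyme that tags hydrolases with mannose 6-phosphate (0.52 ± 0.11). No member of the other 4 lists passed without the block, and their largest differences were SIDT2 at 0.67 ± 0.28 among membrane proteins, ATP6AP2 at 0.26 ± 0.08 in the pump, NBR1 at 0.43 ± 0.12 in autophagy and RRAGB at 0.37 ± 0.10 among TORC1 regulators. With the block, 1 of 15 membrane proteins, 4 of 13 pump genes, 3 of 29 autophagy factors and 2 of 19 TORC1 and MiT regulators rose. The share over all genes was 3.61%. ATP6AP2 (limma adjusted p = 0.0196), NBR1 (0.00501) and RRAGB (0.0159) were among those that rose.

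Of the same 104, 20 rose and 0 fell in RB plus SMYD2 against SMYD2, where 2.94% of all genes rose. With the replicate block 26 rose and 1 fell, where 6.62% and 7.6% of all genes did. The median was 0.12, against 0.009 over all genes. Those that rose without the block were 7 of 20 hydrolases, led by FUCA1 (0.74 ± 0.14), GALNS, a sulfatase (0.54 ± 0.11), and GALC (0.52 ± 0.09), 2 of 15 membrane proteins (TPCN1, 0.51 ± 0.14, and OSTM1, 0.37 ± 0.10), and 2 of 8 sorting genes. Of the latter, GNPTG rose by 0.45 ± 0.11 and IGF2R, the receptor of mannose 6-phosphate, by 0.32 ± 0.08. In the pump 3 of 13 rose, ATP6AP2 by 0.39 ± 0.08, ATP6V1A by 0.36 ± 0.08 and ATP6V0E1 by 0.23 ± 0.06. Of 29 autophagy factors 4 rose, among them the cargo receptor NBR1 (0.64 ± 0.12), ATG13 (0.44 ± 0.09) and the lipid kinase PIK3C3 (0.39 ± 0.09), which works with BECN1. The Rag GTPases RRAGB (0.47 ± 0.10) and RRAGA (0.32 ± 0.08) rose among 19 TORC1 and MiT regulators.

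Cells rich in lysosomes were looked for through their markers. The mean of 8 monocyte and macrophage markers lay between 5.22 and 5.38 on every array, where the lower quartile of an array was 4.36 to 4.42 and its median 5.59 to 5.64. CD14, PTPRC, LYZ and TYROBP lay between 3.61 and 4.71, and the other 4, AIF1, CSF1R, ITGAM and CD163, between 5.80 and 7.16, above the array medians. RMA values have no true zero. Of the 8, 1 was called, CSF1R, which rose by 0.49 ± 0.10 in RB plus SMYD2 against SMYD2 and by 0.39 ± 0.10 in RB plus SMYD2 against control. The mean of 4 osteoclast markers lay between 4.70 and 4.85, and that of 7 interferon response genes, which transfection can raise, between 7.20 and 7.42, with none called. The mean of 8 osteoblast lineage markers read 11.32, 10.83, 10.78 and 10.78 in control and 11.23, 10.82, 10.81 and 10.74 with SMYD2. It read 11.59, 11.22, 11.36 and 11.30 with RB and 11.58, 11.13, 11.30 and 11.34 with RB plus SMYD2. Arrays with and without RB overlapped, but each array with RB was above the same-numbered arrays without it. In each of RB against control and RB plus SMYD2 against SMYD2, 2 of the 8 were called without the replicate block. The part of these markers in the result was not tested.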

How the data were processed

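RNA of 16 SAOS samples was read on 1 Affymetrix array each. The authors deposited log2 signals of 54675 probe sets, made with RMA per the submitters' processing notes. Which arrays entered 1 RMA run is not known here. RMA keeps no detection call, and precision is limited by how many arrays there are. Within groups, arrays correlated at 0.981 to 0.998 and at most 0.075% of values were identical, so none was treated as a copy. Of the probe sets, 41097 carried 1 symbol in the platform annotation, 1801 several and 11777 none. Each gene was its probe set with the highest mean, which left 19775 genes, among them 40 members with 94 probe sets. Group means were compared with limma 3.58.1 (R 4.3.3; lmFit over all 16 arrays, eBayes with a trend). Its two-sided p-values were adjusted over all genes by Benjamini-Hochberg within each of 7 comparisons, with a threshold of 0.05. Adjusted p-values are limma's and differences have standard errors (SE), which come from the fit without the block. Values of single probe sets come from the same model fitted to all of them.

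Members called in any comparison are described by array, the 12 with the smallest adjusted p, and others with an unadjusted p under 0.05 or probe sets of differing sign by difference and SE. From each list of further genes, at most the 3 largest called differences are named, or the largest where none passed. Members, lists and this rule were chosen with earlier results of these data known. The main fit did not pair arrays. For the block and the same-numbered differences, equal replicate numbers were taken to pair them. The reason was that deviations from the group means correlated at 0.145 or more for each number in every pair of groups but RB with SMYD2. RefSeq promoters were matched by symbol. Alternatives covered scaling, probe set choice, a minimum mean signal of 6, the arrays fitted, array weights, the trend, a block for the replicate number, and leaving out each array. Of the lists, 10 further pathway genes and 3 markers were not analysed here. Figures were drawn with matplotlib 3.10.9.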

Additional observations from a re-analysis of the deposited data

Results flagged for a closer look

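In each group of 4 arrays, the highest or lowest value of a member was singled out where its gap to the next value took up most of the group's range (Dixon's criterion). This was so in 9 of 160 groups (5.62%), and chance gives about 1 in 20. In control array 1, CTSL read 10.75 against 11.05 to 11.11 on the other control arrays, and ATP6V0D1 read 11.15 against 11.72 to 11.75. In control array 3, CTSD read 9.59 against 9.78 to 9.80, and MCOLN1 read 8.07 against 7.87 to 7.89. In SMYD2 array 1, TPP1 read 10.14 against 9.81 to 9.86, and ATG5 read 10.02 against 11.05 to 11.25. HEXA read 9.35 in SMYD2 array 5 against 9.42 to 9.43. LAMP1 read 13.23 in RB array 1 against 13.33 to 13.34. GUSB read 11.00 in RB plus SMYD2 array 3 against 11.12 to 11.13. Of the 9, 4 lie in control array 1 and SMYD2 array 1, the arrays with the largest excess of ACTB 3′ over 5′ signal (2.46 and 3.53).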

How the results depend on the processing

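Counts of members called depended on the setting, while among the 16 members called in any comparison no called difference changed sign in RB against control, RB plus SMYD2 against SMYD2 or RB plus SMYD2 against control. Signs in RB against SMYD2 were not compared across settings. In RB against control (8 called), there were 16 with the replicate block, 4 with the probe set of largest variance, 22 with array weights, 15 without control array 1 and SMYD2 array 1, 0 with only numbers 1 and 3, 29 with only 4 and 5, and 4 to 15 with each array left out. In RB plus SMYD2 against SMYD2 (14), there were 9 with only the groups compared, 1 with numbers 1 and 3, 28 with 4 and 5, and 9 to 18 with each array left out. For RB plus SMYD2 against control (15), there were 24 with array weights, 0 with numbers 1 and 3, 32 with 4 and 5, and 20 rising and 1 falling with the block. With each array left out, 11 to 18 were called there, lowest without control array 5 or RB plus SMYD2 array 4 or 5. In RB against SMYD2 (9), there were 15 with the replicate block, though the number 5 arrays of these groups did not deviate together (r of 0.190, 0.425, 0.250 and -0.077 for numbers 1, 3, 4 and 5), 3 with only the groups compared, 17 with array weights, 14 without control array 1 and SMYD2 array 1, 0 with numbers 1 and 3, 26 with 4 and 5, and 6 to 12 with each array left out, lowest without RB array 4. For RB plus SMYD2 against RB (0), numbers 4 and 5 alone gave 2. SMYD2 against control and the interaction gave 0 in every setting. The fits on 2 numbers have 2 arrays per group and pool the spread, and those without control array 1 and SMYD2 array 1 were also chosen after seeing the data. The block changed no other call of a member than those given above and, for RB plus SMYD2 against control, made CTSD, CTSH, CTSK, MAN2B1, SQSTM1 and GABARAPL1 pass (adjusted p = 0.00987 to 0.0316 in limma), and for RB against SMYD2 also CTSA, CTSD, HEXA, NEU1, PSAP and ATP6AP1.

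Over all genes, counts moved the same way. In RB against control 585 were called, 1399 with the block, 391 with the probe set of largest variance, 2296 with array weights, 1185 without control array 1 and SMYD2 array 1, 1 with numbers 1 and 3 and 3819 with 4 and 5. In RB plus SMYD2 against SMYD2, 1422 were called, 2812 with the block, 748 with only the groups compared, 3141 with array weights, 31 with numbers 1 and 3 and 5087 with 4 and 5. For RB plus SMYD2 against control, 1424 were called, 2562 with the block, 3687 with array weights, 2253 without both arrays, 6 with numbers 1 and 3 and 4972 with 4 and 5. In RB against SMYD2, 642 were called, 1831 with the block, 193 with only the groups compared, 1790 with array weights, 1101 without both arrays, 1 with numbers 1 and 3 and 3833 with 4 and 5. With 4 and 5 alone, 392 were called in RB plus SMYD2 against RB and 76 in the interaction, and with the probe set of largest variance 1 in each. With 1 array left out, the share called in RB plus SMYD2 against control lay between 4.55% (without RB plus SMYD2 array 4) and 10.3% (without SMYD2 array 1). In RB against SMYD2 that share lay between 1.54% (without RB array 4) and 4.49% (without SMYD2 array 1). The cause of these shifts was not tested.

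Among single members, ASAH1 passed in RB against control in its brightest probe set but not in that of largest variance (0.68, adjusted p = 0.586) or in the mean of all 5 (0.34, 0.120), and TPP1 (0.33, 0.0882) and LIPA (0.24, 0.191) did not pass in the mean of theirs. With the set of largest variance TPP1 (0.124), LIPA (0.0576) and GABARAPL1 (0.134) were lost there too. In RB plus SMYD2 against SMYD2, the mean of sets ended the calls of CTSB (0.35, 0.0815) and HEXA (0.12, 0.207), and the set of largest variance those of ASAH1 (1.05, 0.158), GABARAPL1 (0.41, 0.0610) and HEXA (0.34, 0.0650). In RB plus SMYD2 against control, the calls of HEXA (0.12, 0.236) and GUSB (-0.24, 0.102) were lost in the mean of sets, and those of ASAH1 (0.68, 0.450), GUSB (-0.38, 0.0595) and LAMP1 (0.59, 0.176) in the set of largest variance, while GABARAPL1 passed in the mean (0.33, 0.0236).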
